A study of Mus musculus with 3 samples.

Results

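Known target genes of the transcription factor p53 were followed in LSK cells, a mouse immunophenotype (lineage-negative, Sca-1-positive, Kit-positive) under which blood stem cells and multipotent progenitors are isolated. The set was a list of 32 textbook targets, named by gene symbol, from which Cdkn1a, Mdm2 and Bax were kept apart. Of the 32 genes, 31 had a probe set named for them alone, out of 18194 genes so named, and Fdxr, a mitochondrial ferredoxin reductase, was not analysed here. Each gene was read from its brightest probe set by the mean of the arrays, and its other probe sets served as a check.

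There were 3 arrays, 1 for each genotype: WT LSK cells, LSK cells lacking p53 (p53 KO, p53-/-), and LSK cells lacking p53 and the ETS factor Mef (DKO, p53-/- Mef-/-). The LSK gate was common to all of them, and strain, age, sex, treatment and the number of animals behind each array are not stated in the sources used here. No p-value, error or test is given, because each genotype was measured on 1 array, so every difference compares that pair of arrays and has no replicate check. The p53 transcript was not analysed here. Signals are given in the order WT, p53 KO, DKO throughout. Elf4, which encodes Mef, read 57.4, 182 and 151, so it was not lower on the DKO array than on WT, and the sources used here do not say whether its probes lie in the deleted part. Directions therefore rest on the labels of the arrays, and "the DKO array" below means the array labelled so.

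p53 is held at a low level in resting cells by Mdm2, which marks it for destruction, and is stabilised by DNA damage, oncogene activity and other stress. It binds DNA as a tetramer at response elements made of a pair of decamer motifs and activates genes of cell cycle arrest, apoptosis, DNA repair and metabolism, several of which (Mdm2, Ccng1) feed back on p53. In blood stem cells p53 is known for supporting quiescence and for limiting the survival of damaged cells. Many of its targets also answer to other factors: Btg2 and Gadd45a are induced by growth factor and stress signalling, and Ddit4 and the sestrins by hypoxia, glucocorticoids, FoxO factors or amino acid stress.

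The promoters of 5 targets are shown because their genes mark the different patterns described below: Rps27l and Ccng1 were lower on both p53-null arrays, Gadd45a differed between those arrays, and Sesn1 and Btg2 were each higher on a p53-null array. Ccng1 differed by less than 2-fold and was chosen for display after its values were seen. Each window runs from 250 bases before to 50 bases after a start site in RefSeq (GRCm38.p6), is written 5′ to 3′ on the gene's strand, and has in capitals each match to the p53 decamer consensus, which reads the same on both strands. The windows are chr9:66946163-66946462 (+) for Rps27l, chr11:40755237-40755536 (-) for Ccng1, chr6:67037358-67037657 (-) for Gadd45a, chr10:41887189-41887488 (+) for Sesn1 and chr1:134079106-134079405 (-) for Btg2.
Rps27l: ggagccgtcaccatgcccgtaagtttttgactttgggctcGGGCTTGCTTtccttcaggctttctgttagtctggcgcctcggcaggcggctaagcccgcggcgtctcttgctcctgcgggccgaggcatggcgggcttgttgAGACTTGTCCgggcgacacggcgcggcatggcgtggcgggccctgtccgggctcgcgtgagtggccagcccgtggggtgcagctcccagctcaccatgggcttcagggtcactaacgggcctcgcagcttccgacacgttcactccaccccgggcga
Ccng1: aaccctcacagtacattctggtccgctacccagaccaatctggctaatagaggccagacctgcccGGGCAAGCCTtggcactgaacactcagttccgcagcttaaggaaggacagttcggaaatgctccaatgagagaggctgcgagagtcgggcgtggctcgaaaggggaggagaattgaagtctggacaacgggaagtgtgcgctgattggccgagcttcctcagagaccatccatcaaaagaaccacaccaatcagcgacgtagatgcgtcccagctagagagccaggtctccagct
Gadd45a: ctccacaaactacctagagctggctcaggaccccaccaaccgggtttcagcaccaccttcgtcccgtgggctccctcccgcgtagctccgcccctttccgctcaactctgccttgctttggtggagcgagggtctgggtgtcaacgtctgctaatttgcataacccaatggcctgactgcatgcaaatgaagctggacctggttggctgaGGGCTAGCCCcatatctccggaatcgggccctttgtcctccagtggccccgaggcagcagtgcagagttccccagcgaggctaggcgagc
Sesn1: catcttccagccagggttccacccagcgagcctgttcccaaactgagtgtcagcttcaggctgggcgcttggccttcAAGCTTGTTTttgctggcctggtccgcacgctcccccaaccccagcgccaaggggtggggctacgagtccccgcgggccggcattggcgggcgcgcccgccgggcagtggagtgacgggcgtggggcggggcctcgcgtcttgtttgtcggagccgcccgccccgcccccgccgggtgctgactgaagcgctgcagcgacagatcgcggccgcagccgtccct
Btg2: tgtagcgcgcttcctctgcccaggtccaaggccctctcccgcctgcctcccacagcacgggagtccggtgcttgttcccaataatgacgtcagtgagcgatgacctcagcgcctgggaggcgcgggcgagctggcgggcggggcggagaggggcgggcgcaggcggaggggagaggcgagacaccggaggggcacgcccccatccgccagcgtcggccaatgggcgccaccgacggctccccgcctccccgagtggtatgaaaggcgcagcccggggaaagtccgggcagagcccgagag

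The Rps27l window held 2 matches, starting 210 and 107 bases before the later of its 2 annotated start sites. The earlier start site lies 327 bases upstream of the later one, so both matches lie downstream of it. The match of Ccng1 began 185 bases before its start site and that of Gadd45a 40 bases before. That of Sesn1 began 173 bases before the later of its start sites. The windows at the earlier start sites of Rps27l and Sesn1 held none. The Btg2 window held none, nor did any window of Pltp, Ddit4 or Cd82, which also differed by at least 2-fold in some comparison. Of the 32 targets, 26 had a window in the table, and 7 of them (26.9%) held at least 1 match in some window, beside 9.55% of all 27025 genes. By window the shares were 8 of 38 (21.1%) and 8.36% of 32851. The other matches were in Aen, Ei24 and Polk. Mdm2 and Bax, kept apart from the list, held 1 match each and Cdkn1a held 2. A match is a description of letters and no evidence of binding, and known p53 elements often lie in first introns or farther upstream. Zmat3, Trp53inp1, Pmaip1, Perp, Tnfrsf10b and Rrm2b had no window in the table.

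Values are linear signal intensities as the authors deposited them, and their 2% trimmed mean was 500.0 on each array. Signals below 110.4, the median over all 3 arrays, were set to that floor before log2 was taken, since low values carry little information, and a gene was called measured if any array had it at the floor or above. Of the 31 targets, 24, 25 and 24 were so on WT, p53 KO and DKO. In all 25 targets were measured, and they give the counts below beside 12597 measured genes in all. Of the LSK markers Kit, Cd34, Flt3, Slamf1, Procr, Tek, Hlf, Mecom, Meis1 and Gata2, all 10 reached the floor on every array, and Sca-1 (Ly6a) was not analysed here. The list was brightest on the DKO array, with summed signals of 19043, 16420 and 30570. Kit had signals of 4996, 2522 and 4873, Cd34 2230, 2442 and 6633, and Meis1 2169, 2373 and 4505.

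**Figure D1:**
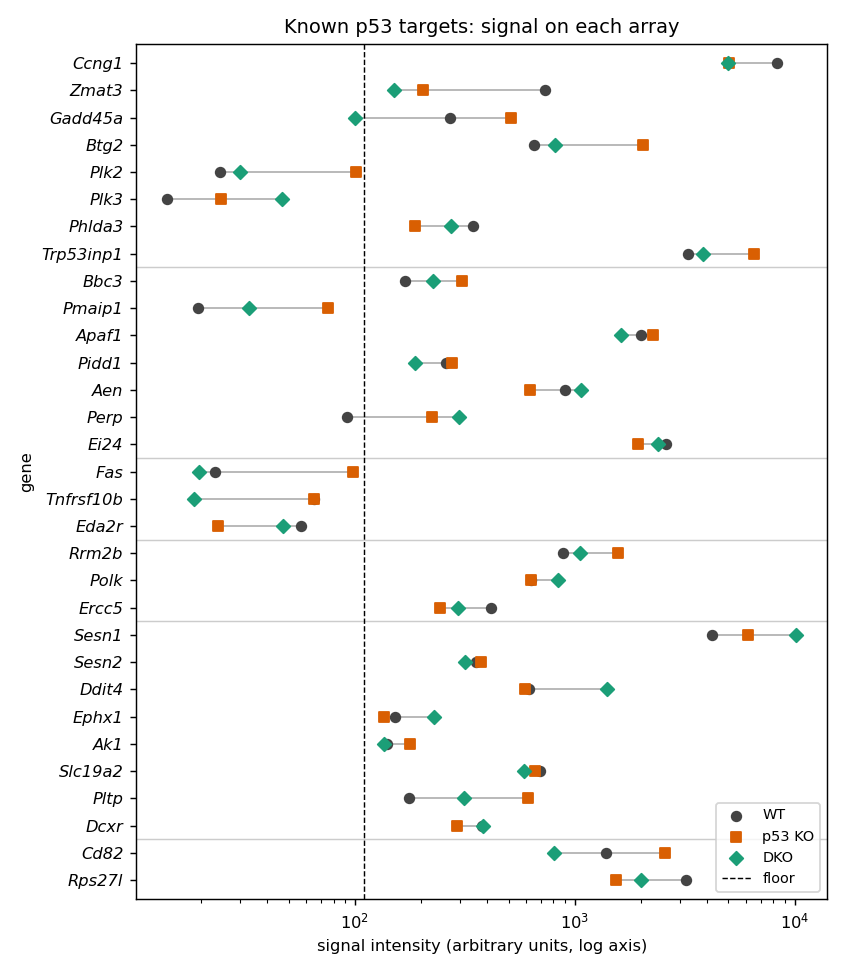
Signal of each of the 31 targets on the WT (circles), p53 KO (squares) and DKO (diamonds) arrays, on a log axis, with grey lines between role groups and the floor of 110.4 dashed. Zmat3, Ccng1 and Rps27l have the WT point to the right of both others, Btg2, Pltp and Trp53inp1 have the p53 KO point farthest right, and all 3 death receptor genes lie left of the floor.

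The targets were not lower as a group on the p53 KO array. On the p53 KO array against WT, 3 of 25 measured targets were at least 2-fold higher (Pltp, Btg2 and Perp) and 2 were at least 2-fold lower (Zmat3 and Rps27l). The shares of 12.0% and 8.0% stand beside 6.51% of all measured genes higher and 3.19% lower, and over all 31 named targets they were 9.68% and 6.45%, beside 4.51% and 2.21% of all named genes. By sign 13 targets were higher and 12 lower, and the median log2 difference was 0.06, beside 0.0 for all measured genes. Trp53inp1 lay just outside the 2-fold line at 1.99-fold, Rps27l just inside it at 2.09-fold, and Perp at 2.03-fold or more. With so few genes on each side, the shares rest on 5 genes.

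The targets differed more in size than in a common direction. The median size of the log2 difference for p53 KO against WT was 0.73 over the 25 measured targets and 0.32 over all measured genes. At a threshold of 1.5-fold, 8 targets were higher and 5 lower, together 52.0%, where 15.4% of all measured genes were higher and 12.5% lower, together 27.8%. For DKO against WT the median sizes were 0.42 and 0.33, with 5 targets higher and 5 lower by 1.5-fold, together 40.0%, where 17.1% of all measured genes were higher and 9.52% lower, together 26.6%. For DKO against p53 KO, where both arrays lack p53, the median sizes were 0.50 and 0.35 with 4 targets higher and 5 lower by 1.5-fold, together 36.0% beside 29.1%. The comparisons share arrays, so these figures are not independent of each other. Targets and all measured genes were not matched for signal level. For p53 KO against WT, 853 of 12597 measured genes had a difference of exactly 0, as signals below the floor on both arrays give, and no target had. Of all measured genes 10267 were at the floor or above on both arrays. The part of the floor in these sizes was not tested.

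**Figure D2:**
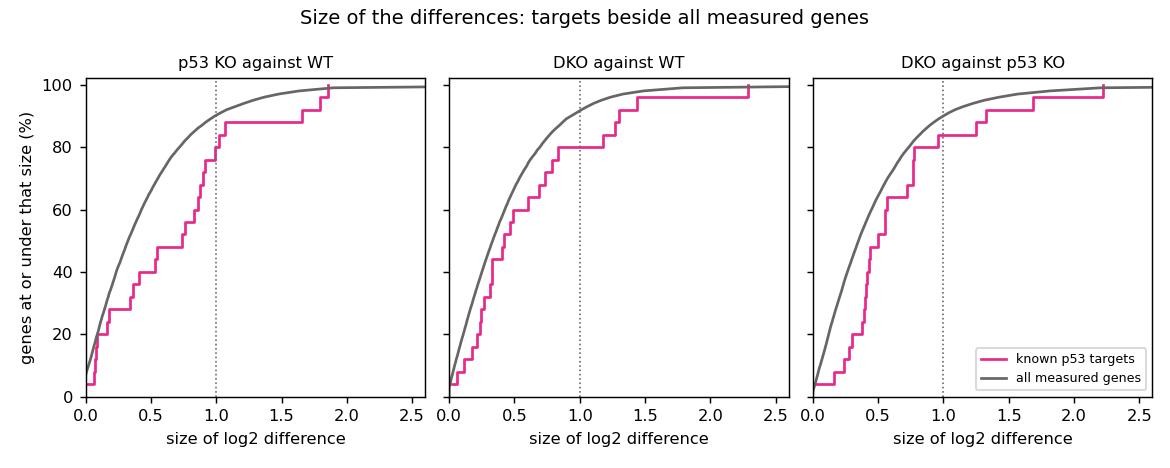
Share of genes (%, vertical axis) whose log2 difference has at most the size on the horizontal axis, for the 25 measured p53 targets (steps) and for all 12597 measured genes (curve), in each comparison, with the 2-fold line dotted. The steps lie below the curve over most of the range, most widely for p53 KO against WT, where the median sizes are 0.73 and 0.32.

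DKO against WT also gave 3 targets higher and 2 lower. Perp, Sesn1 and Ddit4 were at least 2-fold higher and Zmat3 and Gadd45a at least 2-fold lower, so that 12.0% and 8.0% of the measured targets stood beside 5.22% and 3.10% of all measured genes. The median log2 difference was -0.06, beside 0.07 over all measured genes. The WT array is shared with the comparison above, so that a feature of that array would show in both. Quantile normalization moved the split of all measured genes from 657 higher and 390 lower to 462 and 473, and cyclic loess to 432 and 487, while the counts of targets in this comparison did not move under either. Markers of the gated cells moved too. By sign 9 of 10 LSK markers were higher on DKO than on WT, beside 7045 of all 12597 measured genes. The median of the markers was 0.45, beside 0.07 over all measured genes. Cd34 and Meis1 were at least 2-fold higher, 20.0% of the list beside 5.22% of all measured genes. Against p53 KO, 7 of the 10 LSK markers were higher on DKO by 1.5-fold and none lower, with a median of 0.66. Of all 12597 measured genes, 2140 were higher by that much and 1532 lower, together 29.1%. The part of these markers in the DKO differences of the targets was not tested.

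DKO against p53 KO sets aside the WT array, and neither genotype has p53. Ddit4 was at least 2-fold higher, and Gadd45a, Cd82 and Btg2 were at least 2-fold lower. These are 4.0% and 12.0% of the measured targets, beside 4.10% and 5.93% of all measured genes. The median log2 difference was -0.16 for the targets and 0.11 for all measured genes. After cyclic loess the medians were -0.25 and 0.01, and with the mean of every probe set per gene the targets' median was 0.04, of the opposite sign. The log2 difference was 1.25 for Ddit4, -1.68 for Cd82, -1.33 for Btg2 and -2.22 or below for Gadd45a, whose DKO signal was under the floor. With the mean over all probe sets Btg2 lay at -0.96, short of 2-fold, and 2 targets were lower. Over all measured genes the split of 517 higher and 747 lower became 317 and 877 after cyclic loess.

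**Figure D3:**
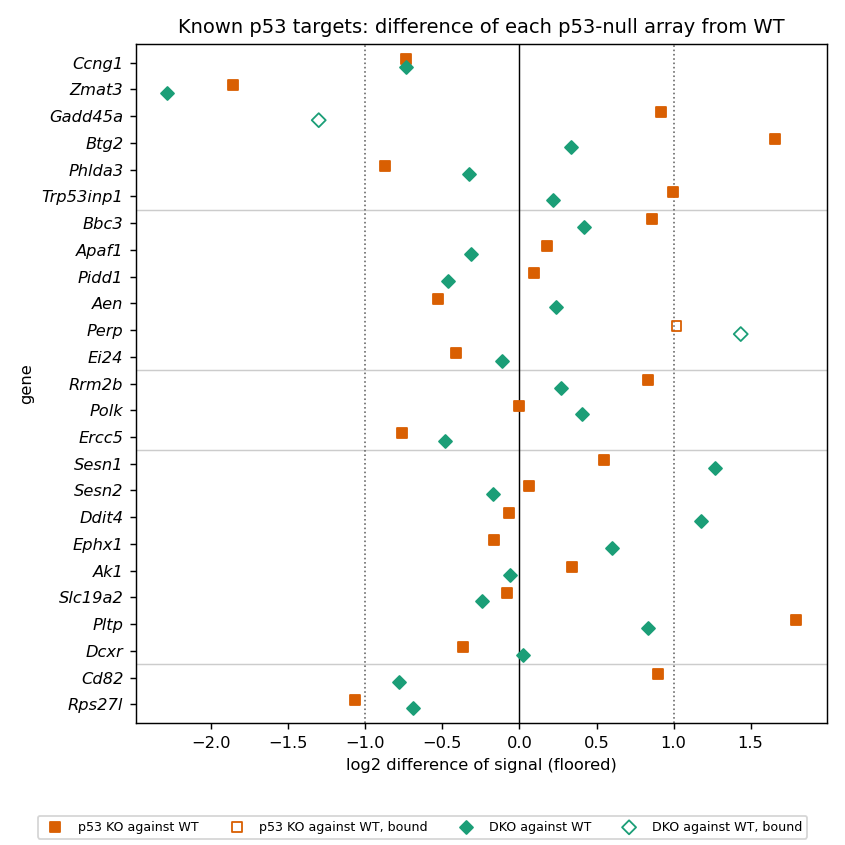
Log2 difference of signal, after the floor, of the p53 KO array (squares) and the DKO array (diamonds) from the WT array for the 25 measured targets; open symbols are lower bounds on size because 1 of the arrays was below the floor, and dotted lines mark 2-fold. Zmat3 lies farthest left on both arrays, at -1.86 and -2.28, and Pltp farthest right on p53 KO at 1.79.

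Among regulators of growth arrest and p53 signalling, Zmat3, an RNA-binding zinc finger protein that acts on splicing and mRNA stability, was the most reduced target. Its signals were 736 in WT, 203 in p53 KO and 151 in DKO cells. WT was 3.62-fold over p53 KO and 4.87-fold over DKO, and the 2 p53-null arrays differed by 1.35-fold. Among genes at or over the floor on both arrays, it ranked 29th from the lowest of 10267 for p53 KO against WT and 30th of 10465 for DKO against WT. It had 1 probe set, so these values have no second reading on the arrays. Raising the floor to the 75th percentile left both differences as bounds of -0.72.

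Ccng1 encodes cyclin G1, which brings the phosphatase PP2A to Mdm2. Its signals were 8331, 5006 and 5001, so the p53-null arrays were level with each other and lay at log2 differences of -0.73 and -0.74 from WT. Its other probe sets read 767, 459 and 456, and 360, 248 and 279. All 3 probe sets were highest on the WT array, and all 6 differences from WT lay between -0.75 and -0.37.

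Phlda3, a competitor of Akt for membrane lipids, had signals of 344, 188 and 275, lower than WT by log2 -0.87 and -0.32. Gadd45a, a stress sensor that binds PCNA and the kinase MEKK4, had signals of 272, 514 and 100.7. It was thus higher than WT on the p53 KO array (0.92) and below the floor on the DKO array, at -1.30 or below against WT and -2.22 or below against p53 KO. Raising the floor to the 75th percentile gave 0.0 and -0.20, since little of its signal then remained. Of all measured targets Gadd45a differed most between the p53-null arrays.

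Btg2, an antiproliferative partner of the deadenylation machinery, had signals of 650, 2052 and 818 and was highest on the p53 KO array. The log2 differences were 1.66 and 0.33 from WT, and its other probe set, at 297, 778 and 517, gave 1.39 and 0.80. Between the p53-null arrays the second probe set gave -0.59, where the brightest gave -1.33. Trp53inp1, a cofactor of p53 in stress and autophagy, had signals of 3286, 6541 and 3816, highest on the p53 KO array as well (0.99 and 0.22), but a further probe set read only 68.7, 114 and 54.5, close to the floor. The polo-like kinases Plk2 and Plk3 were below the floor on every array, at no more than 100.8 and 46.6.

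Of the genes of mitochondrial and p53-dependent apoptosis, none of 6 measured was lower by 2-fold in any comparison, where 3.19%, 3.10% and 5.93% of all measured genes were, so that a count of 0 among so few is near that background. Bbc3, the BH3-only protein Puma, had signals of 169, 306 and 226, higher than WT by log2 0.86 and 0.42. Its difference on DKO fell to 0.11 after quantile normalization and 0.14 after cyclic loess. Pmaip1, the BH3-only protein Noxa, was below the floor at 19.3, 75.3 and 32.9. Bbc3 was thus lowest on the WT array, and no order is given for Pmaip1.

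Apaf1, the scaffold of the apoptosome, had signals of 2011, 2279 and 1616, and Pidd1, a scaffold of the PIDDosome that activates caspase-2, of 260, 277 and 189. Both were within 1.5-fold of WT on each array, but Pidd1 on DKO moved from a log2 difference of -0.46 to -0.75 under quantile normalization and -0.73 under cyclic loess, past 1.5-fold. Ei24, a membrane protein of the endoplasmic reticulum, was also close to level, at 2593, 1948 and 2398.

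Aen, an exonuclease that degrades DNA and RNA in apoptosis, had signals of 903, 626 and 1064. It was lower than WT on p53 KO in all 3 measured probe sets (-0.53, -0.96 and -0.57), but on DKO the probe sets parted (0.24, -0.55 and 0.07). Perp, a membrane protein of desmosomes that also takes part in apoptosis, had signals of 91.8, 224 and 299. WT was below the floor, so Perp was higher by at least 1.02 on p53 KO and at least 1.44 on DKO.

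The death receptor genes were below the floor throughout. Fas, the receptor of Fas ligand, had signals of 23.2, 97.9 and 19.6, Tnfrsf10b, the mouse TRAIL receptor, 65.3, 65.2 and 18.6, and Eda2r, the receptor of ectodysplasin A2, 56.7, 23.9 and 47.1. No difference is given for them, and values below the floor have no order here.

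Among genes of DNA repair and nucleotide supply, Ercc5, the XPG endonuclease of nucleotide excision repair, had signals of 414, 244 and 296, lower than WT by log2 -0.76 and -0.49. Rrm2b, the p53-inducible subunit of ribonucleotide reductase, had signals of 882, 1571 and 1061 and log2 differences of 0.83 and 0.27. Its other 2 measured probe sets were also higher than WT, by 0.34 and 0.45 on p53 KO and by 0.84 and 0.65 on DKO, but placed DKO over p53 KO. Polk, a translesion polymerase, had signals of 633, 632 and 838, level between WT and p53 KO.

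In the group of stress and metabolic genes, Sesn1, a sestrin that restrains mTORC1, had signals of 4208, 6161 and 10152. Its log2 differences from WT were 0.55 on p53 KO and 1.27 on DKO, and WT was the lowest array by all 4 probe sets. The other 3 gave 0.28, 0.39 and 0.09 on p53 KO and 0.59, 0.79 and 0.33 on DKO, so only the brightest reached 2-fold. Its paralog Sesn2 stayed near level at 357, 373 and 317.

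Ddit4, the mTORC1 inhibitor Redd1, had signals of 622, 593 and 1409. It was thus level between WT and p53 KO (-0.07) and higher on DKO than on either (1.18 and 1.25). Pltp, the phospholipid transfer protein of plasma lipoproteins, had signals of 176, 610 and 314, a log2 difference of 1.79 for p53 KO against WT and 0.83 for DKO against WT. Its other probe set reached the floor on p53 KO only, at 12.4, 179 and 49.5, a difference of at least 0.70 from WT that does not reach 2-fold.

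The remaining genes of that group were within 1.5-fold of WT, except Ephx1, the microsomal epoxide hydrolase, on DKO. Its signals were 152, 135 and 230, and its log2 difference of 0.60 fell within 1.5-fold after quantile normalization (0.28) and cyclic loess (0.26). Ak1, an adenylate kinase, had 141, 178 and 135, the thiamine transporter gene Slc19a2 had 697, 658 and 588, and Dcxr, a carbonyl reductase of xylulose, had 377, 293 and 384.

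Cd82, a tetraspanin known as a metastasis suppressor and a regulator of stem cell quiescence, had signals of 1384, 2580 and 804. It was higher than WT on p53 KO (0.90) and lower on DKO (-0.78), and a second probe set read -0.12 and -0.81. DKO was thus lower than both other arrays by either probe set, while the direction on p53 KO differed between them.

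Rps27l, a ribosomal protein closely related to Rps27 that binds Mdm2, had signals of 3224, 1541 and 2001, a log2 difference of -1.06 on p53 KO and -0.69 on DKO. The other 2 probe sets gave -0.99 and -1.45 on p53 KO and -0.92 and -0.68 on DKO, so all 3 were highest on the WT array. Of these, 2 carry the suffix _x_at, which marks probes that may bind related sequences, so signal from Rps27 or from pseudogenes cannot be told apart from that of Rps27l. Only those 2 reached 2-fold for p53 KO against WT (-1.06 and -1.45), and the probe set without that suffix, at -0.99, did not. The probe set named for Rps27 had a different course, at 299.9, 274 and 122.

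Further probe sets give the nearest check that these arrays allow, though they share the RNA and the labelling of the first. Of the 25 measured targets, 12 had at least 1 other measured probe set, 18 in all. For p53 KO against WT, 15 of 17 with a sign on both pointed the same way as the brightest, for DKO against WT 15 of 16, and for DKO against p53 KO 13 of 18. The median gap between a probe set and the brightest was 0.38, 0.32 and 0.37 on the log2 scale in that order. The largest gap for p53 KO against WT was 1.09, for Pltp.

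**Figure D4:**
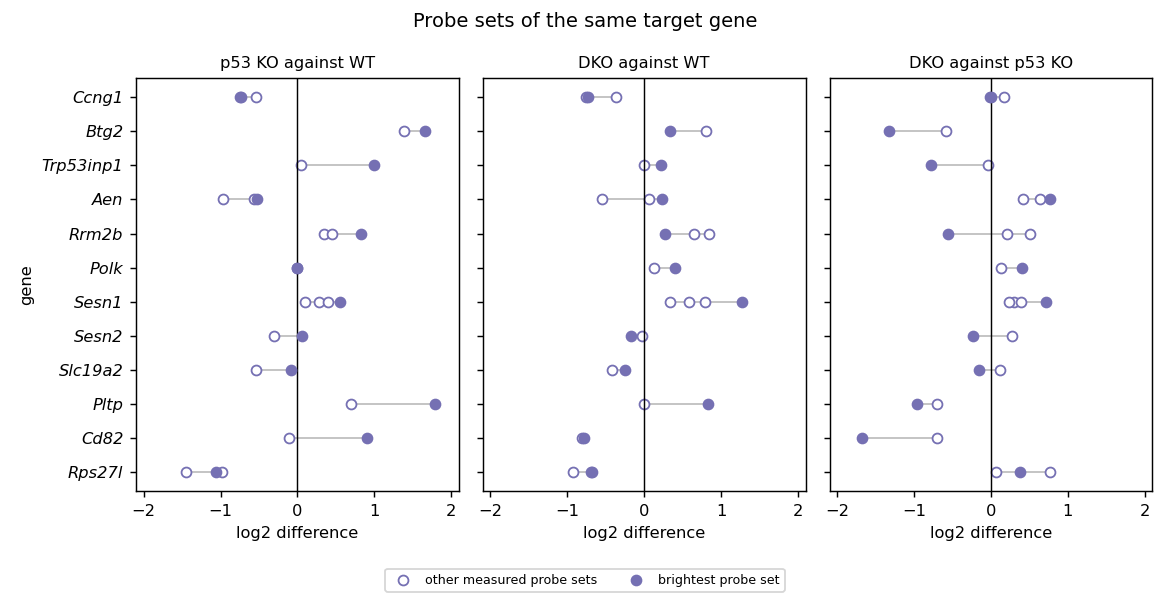
Log2 difference by probe set for the 12 targets with more than 1 measured probe set, in each comparison; filled points are the brightest probe set, which gave the values in the text, and open points the others. Ccng1 and Rps27l keep all points left of 0 against WT, and Cd82 has points on both sides for p53 KO against WT.

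Markers of blood lineages, early and mature stages together, also differed between the arrays, and most of these lists were higher on the p53 KO array. By their brightest probe sets, Btg2, Pltp, Trp53inp1, Cd82, Gadd45a, Bbc3, Rrm2b, Apaf1, Pidd1, Ak1 and Sesn2 were highest there. The other measured targets were highest on WT or DKO. How many of all measured genes were highest on each array was not counted, so this order has no background. Further probe sets of Cd82 and Sesn2 were highest on WT, and those of Rrm2b on DKO. On p53 KO against WT, 6.51% of all measured genes were at least 2-fold higher, and the counts of higher markers stand beside that share. Of monocyte and macrophage markers 9 of 12 were at least 2-fold higher than WT there. Their summed signals were 23964, 61042 and 25334, with 10, 12 and 11 markers at the floor or above. B cell markers had 9 of 11 higher and sums of 2522, 8409 and 3817, granulocyte markers 6 of 10 and sums of 119417, 202327 and 100956, and megakaryocyte markers 6 of 11 and sums of 4669, 13578 and 8339. Erythroid markers were lowest on the DKO array, with sums of 70682, 98619 and 19091. There 7 of 9 measured were at least 2-fold lower than WT, beside 3.10% of all measured genes. T and NK cell markers summed to 2608, 3772 and 4546, with 5, 6 and 5 of 10 at the floor or above. Their median signals were 138.7, 252.0 and 86.96, so DKO was highest by the sum but lowest by the median. Of 6 measured, 2 were at least 2-fold higher than WT on p53 KO. On DKO 1 was higher and 1 lower, beside 5.22% and 3.10% of all measured genes. Fewer cells of a type and less RNA per cell cannot be told apart in such samples, and the part of these markers in the targets' differences was not tested.

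Immediate early genes, which share signals with Btg2 and Gadd45a, were mostly higher on both p53-null arrays. Of 19 measured, 12 were at least 2-fold higher on p53 KO and 11 on DKO, with none lower by that measure and medians of 1.05 and 1.22. Of all measured genes, 6.51% were at least 2-fold higher on p53 KO and 5.22% on DKO, and 3.19% and 3.10% were lower. A count of 0 lower among 19 is near that background. By sign 15 of the 19 were higher than WT on p53 KO and 4 lower, 2 of these by at least 1.5-fold. On DKO 18 were higher and 1 lower. Over all 12597 measured genes the signs were 5824 higher and 5920 lower on p53 KO, and 7045 and 5178 on DKO. Fos had signals of 1384, 5890 and 14202, and Dusp1, a phosphatase of MAP kinases, 869, 2351 and 3951. Of the 19 genes, 12 were highest on the DKO array, Fos and Dusp1 among them, 6 on p53 KO and 1 on WT. The 6 were Ier5, Klf2, Klf4, Klf6, Nr4a1 and Zfp36, named here after their values were seen. The share of all measured genes highest on each array was not counted, so these counts have no background. Btg2 and Gadd45a were both highest on p53 KO, and Gadd45a was below the floor on DKO. Whether the genes of this list bear on the values of Btg2 or Gadd45a was not tested.

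The targets kept apart from the list did not fall on p53 KO: every measured probe set of Cdkn1a and Mdm2 was higher there than on WT. By the brightest probe sets the log2 differences from WT on p53 KO and DKO were 0.97 and 1.15 for Cdkn1a. For Mdm2 they were 0.23 and -0.34, and its other measured probe set gave 0.70 and 0.63. Cdkn1a, the inhibitor p21 of cyclin-dependent kinases, had signals of 291, 569 and 648, and Mdm2 had 876, 1027 and 692. Their other measured probe sets read 6.31, 145 and 131.5 for Cdkn1a and 164, 265 and 253 for Mdm2. Bax was not analysed here.

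Of 40 further p53 targets, 36 were named and 32 measured, with medians of 0.08 for p53 KO against WT and -0.02 for DKO against WT. On p53 KO 1 was at least 2-fold higher and 2 were lower, together 9.38% beside 9.70% of all measured genes. On DKO 4 were higher and 1 lower, together 15.6% beside 8.31%. Trp53i11 was higher on both, at 191, 492 and 515. Sco2, an assembly factor of cytochrome oxidase, was lower on p53 KO, at 589, 210 and 473, as was Tap1, a peptide transporter of antigen presentation, at 2380, 1141 and 1593. Ccng2, the relative of cyclin G1, ran opposite to Ccng1 at 2367, 4575 and 4049.

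Of 28 measured regulators of p53, the kinases Hipk2 and Hipk1 were at least 2-fold higher on p53 KO against WT, 7.14% beside 6.51% of all measured genes, and none was 2-fold lower, where 3.19% of all were. The count is thus near the background. Hipk2 had signals of 1291, 2709 and 1807 and Hipk1 1892, 3885 and 1313. On DKO against WT none of them differed by 2-fold, where 8.31% of all measured genes did. The methyltransferase genes Smyd2 and Kmt5a had 2778, 1433 and 2301, and 2384, 2440 and 1281. Medians were -0.06 and -0.01, beside 0.0 and 0.07 for all measured genes.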

How the data were processed

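Gene expression was measured on 3 Affymetrix arrays of mouse LSK cells, 1 per genotype. The deposited values are signal intensities for 45101 probe sets, and the authors made them with GCOS and MAS5 (versions unstated), per the submitters' processing notes. No further scaling was applied. Probe sets were named from the platform annotation, and 34754 symbols were updated through the Entrez ID in RefSeq (GRCm38.p6); 34958 probe sets carried 1 symbol, 932 several and 9211 none, and only the first were used.

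Signals were floored at 110.4 (their 50th percentile), log2 was taken, and differences between arrays were computed with numpy 2.4.6 and pandas 2.3.3. A call is a difference of at least 2-fold. With 1 array per genotype no test was run, and the number of arrays limits the precision. Alternatives were quantile normalization, cyclic loess (limma 3.58.1, 3 iterations), floors at the 25th and 75th percentiles, a pseudocount of 32, the mean of all probe sets, plain _at probe sets, no filter, and thresholds of 1.5-fold and 3-fold. The call rule was tested on simulated data.

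The targets and all lists were chosen with earlier results of these data known. Named besides the 32 targets were the targets kept apart, Elf4 and Rps27, up to 4 genes each of the further targets and regulators with the largest differences from WT and a signal over 448.4, and the brightest immediate early and LSK genes. Jund and Hlf, also picked by that rule, are not described, nor are single genes of the blood lineage lists. Cd34, Meis1 and 6 further immediate early genes were named after their values were seen.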

Additional observations from a re-analysis of the deposited data

How the results depend on the processing

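No paired analysis was possible because each genotype has 1 array, and no array could be left out. Of 489 values of single targets under the alternatives that can move one, which leaves out the filters on genes, 446 moved by less than 0.25 on the log2 scale and 43 by more. Of the 215 that were at least 1.5-fold, 0 turned to the opposite sign. Quantile normalization and cyclic loess each made 4 targets higher for p53 KO against WT and 4 lower for DKO against p53 KO. With the floor at the 25th percentile, 6 targets were at least 2-fold higher for p53 KO against WT and 6 lower for DKO against p53 KO, since all 31 named targets then count as measured. With the floor at the 75th percentile 16 were measured, and p53 KO against WT had 1 higher and 1 lower and DKO against WT 0 lower; Zmat3 was then -0.72 against WT on both arrays, a bound set by that floor. Plain _at probe sets leave out Rps27l, and 1 target was lower for p53 KO against WT. At 1.5-fold, 8 were higher and 5 lower for p53 KO against WT, 5 and 5 for DKO against WT, and 4 and 5 for DKO against p53 KO. At 3-fold, Pltp (3.47-fold) and Btg2 (3.16-fold) were still higher for p53 KO against WT, and 1 target, Zmat3, was lower. For DKO against WT 0 were higher and 1 lower. For DKO against p53 KO 0 were higher, and Gadd45a (at least 4.66-fold) and Cd82 (3.21-fold) were still lower. A filter on the mean of the 3 arrays, chosen after seeing the data, gave the same counts and medians. With the mean of all probe sets, Btg2 fell short of 2-fold for DKO against p53 KO (-0.96), the targets' median there was 0.04 in place of -0.16, and Sesn1 fell to 0.74 for DKO against WT; plain _at probe sets gave Sesn1 0.79 there and Pltp 0.70 for p53 KO against WT, and Pltp was 0.45 with the highest floor. Low signals limit the set: 6 of 31 named targets never reached the floor.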
